A study of Mus musculus with 7 samples.

Results

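The 10 genes described here are a list given by name. They are the laminin chains Lama2, Lama4, Lama5, Lamb1, Lamb2 and Lamc1, the collagen IV chains Col4a1 and Col4a2, nidogen 1 (Nid1) and perlecan (Hspg2), 10 of the 56854 gene identifiers that all 7 libraries had in common. All 10 passed the filter on low counts, with 464 to 21567 reads per gene and library. RNA was sequenced from whole mouse shoulder joints, with 1 library per mouse. The supraspinatus tendon, a tendon of the rotator cuff, had been repaired on the left side and the joints were taken 2 weeks later. One group was wild type (n = 3) and the other was Tnc-/- (n = 4), without the matrix glycoprotein tenascin C. Every animal had the repair, so no unoperated joint is part of the comparison, and the question is how the repaired joints of the 2 genotypes differed. The labels do not give the strain, age or sex of the mice or how the Tnc allele was made.

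The basement membrane is the thin sheet of matrix beneath endothelium and around each muscle fibre, fat cell and Schwann cell. It is built from a polymer of laminin, each laminin being a trimer of an alpha, a beta and a gamma chain, and from a covalently cross-linked network of collagen IV, whose common form pairs chains from Col4a1 with a chain from Col4a2. Nidogen 1 and perlecan tie these networks together. In the limb, the alpha chain of Lama2 is the one of muscle fibres and peripheral nerve, whereas those of Lama4 and Lama5 are the ones of vessel walls.

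Levels are given as CPM, the reads of a gene per mega (M) reads of library, with library sizes scaled by edgeR's TMM method. The library totals were 13.5 to 28.2 M gene reads. Tnc itself had a mean of 352 CPM in wild type and 41.8 CPM in Tnc-/-, or 11.9% of the wild-type mean, so reads on this gene were fewer but present. The wild-type libraries were not alike. Across genes, log2 levels of wild-type library 1 correlated with those of the Tnc-/- libraries at 0.968 to 0.971, but with those of wild-type libraries 2 and 3 at 0.815 and 0.869. Reads on 1790 genes for smell and pheromone receptors, which are used by sensory neurons of the nose, differed in the same way. Their summed level was 85.6 CPM in wild-type library 1, 1302 CPM in library 2 and 920 CPM in library 3, against 36.0 to 43.5 CPM in Tnc-/-. Results are therefore also given for wild-type library 1 alone against Tnc-/-, in which the lone library is assumed to vary like the other group. The files of the 2 genotypes came from different counting runs, so run and genotype cannot be told apart. Of the tissue markers examined, Acta1 of skeletal muscle was at 8953 to 16004 CPM, Col1a2 of fibroblasts and tendon at 10287 to 19925 CPM, Spp1 of bone at 663 to 1167 CPM and Pecam1 of endothelium at 176 to 222 CPM. The tendon factor Scx was listed at 0 in all 7 libraries, while Tnmd, a tendon marker, was at 182 to 361 CPM. In such whole joints, fewer cells of a type and less RNA per cell cannot be told apart.

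Col4a1 and Col4a2 lie head to head on chromosome 8 and are read in opposite directions from start sites 21 bases apart. Their promoters are shown because both chains enter the same trimer while their levels are compared here, and those of Lama5 and Hspg2 because these genes had the largest positive differences of the 10. Each window runs from 250 bases before to 50 bases after the start site, is written 5′ to 3′ on the gene's own strand and comes from RefSeq (GRCm38.p6). Capitals mark GGGCGG or its reverse complement CCGCCC, the core of the GC box. The windows are Col4a1 at chr8:11312777-11313076 (minus strand), Col4a2 at chr8:11312555-11312854 (plus strand), Lama5 at chr2:180225810-180226109 (minus strand) and Hspg2 at chr4:137468553-137468852 (plus strand).
Col4a1: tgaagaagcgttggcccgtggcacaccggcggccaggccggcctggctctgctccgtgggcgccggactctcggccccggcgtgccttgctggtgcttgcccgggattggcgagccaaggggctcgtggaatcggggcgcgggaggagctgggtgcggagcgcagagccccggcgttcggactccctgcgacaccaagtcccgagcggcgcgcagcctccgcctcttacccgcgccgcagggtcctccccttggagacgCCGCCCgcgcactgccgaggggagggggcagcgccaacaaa
Col4a2: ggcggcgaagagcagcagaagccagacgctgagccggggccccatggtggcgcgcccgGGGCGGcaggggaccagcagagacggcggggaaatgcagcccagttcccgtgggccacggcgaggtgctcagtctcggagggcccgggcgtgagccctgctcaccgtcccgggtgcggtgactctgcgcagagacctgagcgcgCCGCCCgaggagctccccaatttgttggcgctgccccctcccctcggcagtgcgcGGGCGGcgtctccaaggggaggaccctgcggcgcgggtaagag
Lama5: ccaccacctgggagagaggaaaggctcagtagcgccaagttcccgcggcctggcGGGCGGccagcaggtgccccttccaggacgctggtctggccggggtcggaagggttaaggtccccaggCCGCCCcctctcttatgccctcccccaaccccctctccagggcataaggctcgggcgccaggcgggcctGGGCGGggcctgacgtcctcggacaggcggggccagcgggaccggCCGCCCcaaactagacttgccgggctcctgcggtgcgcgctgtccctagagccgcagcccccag
Hspg2: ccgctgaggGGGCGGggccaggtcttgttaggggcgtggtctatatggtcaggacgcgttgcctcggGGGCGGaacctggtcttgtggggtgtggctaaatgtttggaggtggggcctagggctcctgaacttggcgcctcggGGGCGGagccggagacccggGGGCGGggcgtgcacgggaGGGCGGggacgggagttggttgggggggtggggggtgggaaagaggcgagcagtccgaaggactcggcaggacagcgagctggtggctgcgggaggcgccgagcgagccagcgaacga
The Col4a1 and Col4a2 windows share 78 bases. The marked stretch of the Col4a1 window lies in these and is the same site as the last one marked for Col4a2. GGGCGG on either strand occurred once in the Col4a1 window, 3 times in that of Col4a2, 4 times in that of Lama5 and 5 times in that of Hspg2. It was present in 7 of the 8 windows found for the 10 genes (Lama2, Lama5, Lamb1, Col4a1, Col4a2, Nid1 and Hspg2, not Lamb2), against 35.7% of all 32851 windows of 300 bases. CCAAT on either strand was in the windows of Lamb1, Col4a1, Col4a2 and Nid1 (37.4% of all windows) and TATAAA on either strand in none of the 8 (13.6% of all windows). GC made up 74.0% of the Col4a1 window, 73.7% of that of Col4a2, 72.7% of that of Lama5 and 70.3% of that of Hspg2, against a median of 52.7% over all windows. Of the windows not shown, those of Nid1 and Lamb1 were at 64.7 and 63.7% GC. Those of Lama2 and Lamb2 lay below the median, at 50.3 and 44.0%. GGGCGG occurred in windows of genes called higher, genes called lower and genes that did not pass the test between genotypes. Windows for Lama4 and Lamc1 were not used here.

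Between genotypes, Lama5, Col4a1 and Hspg2 were higher and Lama2 was lower in Tnc-/-. These were 4 of the 10 genes with an adjusted p under 0.05 in edgeR's quasi-likelihood test fitted over all 17791 tested genes, of which 29.0% were called. The 3 higher genes stand against 10.3% of all tested genes called higher, and the 1 lower gene against 18.7% called lower. The 2 groups did not overlap in 5 of the 10 genes, which was so for 35.1% of the tested genes. The median log2 fold change of the 10 genes, Tnc-/- over wild type, was 0.22, and that of all tested genes was -9.0e-04. Scaled by library totals instead of TMM, the median of all genes moved to -0.24 and the lower share of all calls from 64.5% to 82.7%. The plot of levels by library shows all 10 genes.

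**Figure D1:**
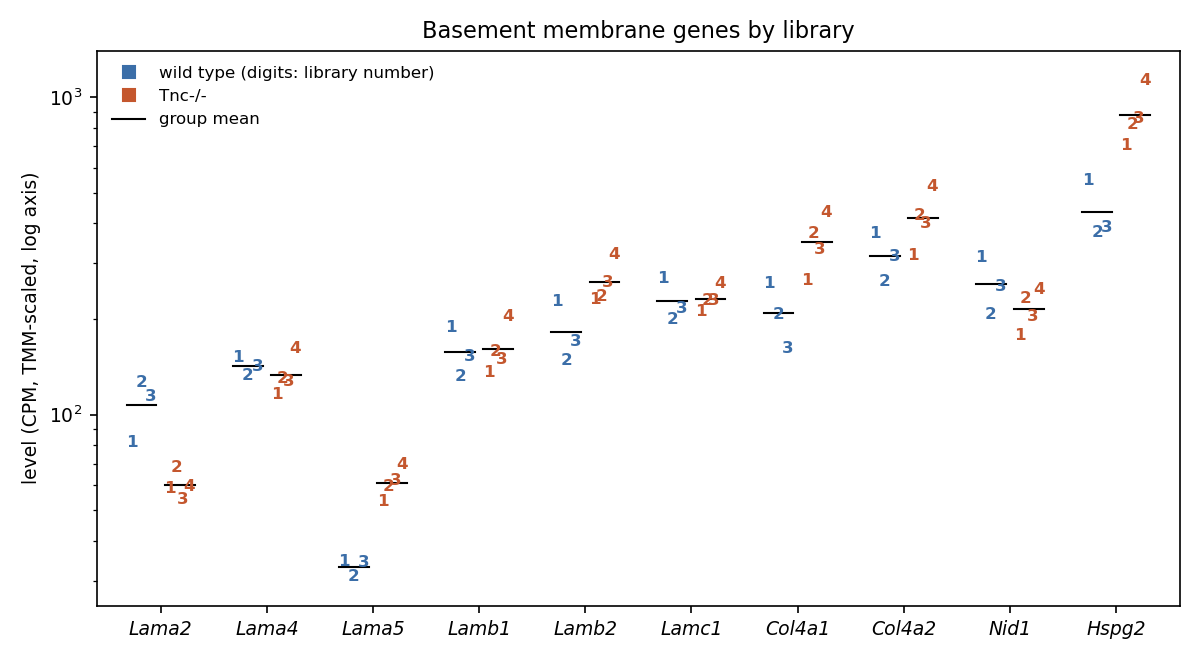
Level of each of the 10 basement membrane genes in each library (vertical axis, TMM-scaled CPM on a log axis), with wild type in blue, Tnc-/- in orange, digits giving the library number and bars the group means. Lama5 and Hspg2 are higher in all 4 Tnc-/- libraries, Lama2 is lower in all 4, and the groups of Lama4, Lamb1, Lamc1, Col4a2 and Nid1 overlap.

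Of the laminin alpha chains, Lama5 rose, Lama2 fell and Lama4 did not pass the test. Lama5 (ENSMUSG00000015647, chromosome 2) encodes the alpha 5 chain of endothelial and epithelial basement membranes. In wild type it stood at 34.4, 30.8 and 34.1 CPM (libraries 1 to 3), and in Tnc-/- at 53.3, 59.4, 62.0 and 69.5 CPM (libraries 1 to 4). The groups did not overlap, and the lowest Tnc-/- library was well above the highest wild-type library. This is a log2 fold change of 0.88 (SE 0.13, adjusted p 0.0067, edgeR). Against wild-type library 1 alone it was 0.82 (adjusted p 0.0343, edgeR), so the rise was of like size without the wild-type libraries rich in receptor-gene reads.

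Lama2 (ENSMUSG00000019899, chromosome 10) encodes the alpha 2 chain, whose loss causes a congenital muscular dystrophy. It was measured at 81.6, 126 and 114 CPM in wild type and at 58.5, 68.3, 54.1 and 59.5 CPM in Tnc-/-. All Tnc-/- libraries were lower than all wild-type libraries, and wild-type library 1 was the closest to them. The log2 fold change was -0.83 (SE 0.17, adjusted p 0.0095, edgeR). Against wild-type library 1 alone it was -0.45, with an adjusted p of 0.125 (edgeR), and the call was not kept.

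Lama2 is by far the longest of the 10 genes, with a span of 640 kb from its first to its last base. If the receptor-gene reads are taken as a rate per kb of gene span, that rate times the span of Lama2 came to 4.07, 61.9 and 43.8 CPM in wild type, against 1.71 to 2.07 CPM in Tnc-/-. With this amount subtracted, Lama2 stood at 77.5, 64.2 and 70.3 CPM in wild type and at 56.5, 66.2, 52.2 and 57.8 CPM in Tnc-/-. The groups then overlapped, with a log2 ratio of means of -0.28. When the rate was applied to the exonic length, the log2 ratio of means was -0.81 and the groups stayed apart. The same subtraction by span left Lama5 at a log2 ratio of 1.01 and Hspg2 at 1.03. Across tested genes, the median log2 fold change went from 0.29 in genes of up to 10 kb to -2.71 in genes spanning over 300 kb, and what part of the Lama2 difference this accounts for was not tested. An annotated gene on the other strand, Gm48084, overlaps 631 bp of Lama2 exons, and the strand setting of the counting is not given in the sources used here.

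The level of muscle and nerve markers is given beside these chains. The 10 skeletal muscle markers summed to 23763 to 32127 CPM in wild type and to 33589 to 50620 CPM in Tnc-/-, with no overlap. Of them 2 were called higher, the fast myosin Myh4 (log2 fold change 1.18, adjusted p 0.0086) and Ryr1 (1.28, adjusted p 0.0099, edgeR), none was called lower, against 10.3% and 18.7% of all tested genes, and the median log2 fold change was 0.51. In the comparison with wild-type library 1 alone Myh4 was at 0.95 and Ryr1 at 0.83, and none of the 10 was called, against 4.45% of all genes tested there. The 8 Schwann cell markers also summed higher, at 119 to 144 CPM in wild type and 150 to 168 CPM in Tnc-/-. Without the myelin gene Mbp the other 7 summed to 80.6 to 92.5 CPM and 75.2 to 94.6 CPM and overlapped. Of the 7 tested, Mbp was called higher (0.81, adjusted p 0.0121) and Ncmap lower (-1.48, adjusted p 0.0487, edgeR), against the same 10.3% and 18.7%, with a median log2 fold change of 0.06. With wild-type library 1 alone as the comparison, Mbp was at 0.45 and Ncmap at -0.09, and neither was called. The part of these cell types in the Lama2 and Lama5 differences was not tested.

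Lama4 (ENSMUSG00000019846, chromosome 10) encodes the alpha 4 chain of vessel and fat cell basement membranes. Its levels were 151, 133 and 142 CPM in wild type and 116, 130, 127 and 161 CPM in Tnc-/-. The groups overlapped and the difference was smaller than the spread within either group (log2 fold change -0.09, SE 0.14, adjusted p 0.674, edgeR).

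The mix of alpha chains can be read within a library without the scaling between libraries, though not without trends over GC or span, which differ between these genes. Per kb of transcript, Lama4 made up 68.4, 58.1 and 61.2% of the 3 alpha chains in wild type and 64.0, 63.5, 65.6 and 68.4% in Tnc-/-. Lama4 was thus the main alpha chain everywhere, and its share overlapped between genotypes. Lama5 made up 7.75% ± 0.56 (SD, n = 3) in wild type and 15.9% ± 0.68 (SD, n = 4) in Tnc-/-. The share of Lama2 was 29.6% ± 5.82 and 18.7% ± 2.41 in the same order, and neither of these shares overlapped between genotypes.

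The ratio of Lama5 to Lama4 per kb was 0.121, 0.123 and 0.128 in wild type and 0.244, 0.243, 0.258 and 0.229 in Tnc-/-. This ratio varied little within a genotype, and was 1.96-fold higher in Tnc-/- (a ratio of geometric means). An exact two-sided permutation test gave p = 0.0571, the smallest value that the 35 splits of 7 libraries allow, so no such ratio can pass 0.05 here. The ratio of Lama4 to Lama2 was 2.94, 1.68 and 1.98 in wild type and 3.15, 3.02, 3.74 and 4.30 in Tnc-/- (1.65-fold higher, exact permutation p = 0.0571). Wild-type library 1 lay just under the lowest Tnc-/- library in this ratio, whereas for Lama5 to Lama4 it lay with the other wild-type libraries. Over the 4 ratios compared, the adjusted p was 0.0571 for each. Taken from fits with these trends removed, both differences were smaller or turned. The log2 difference of Lama5 to Lama4, 0.97 as measured, was 0.51 with the GC trend removed and 0.12 with GC and span trends removed, but 1.02 with the summed receptor-gene level as a covariate. That of Lama4 to Lama2, 0.72 as measured, was 0.62 and -0.62 in the same order, and 8.2e-04 with that covariate. With the receptor-gene rate by span subtracted instead, log2 ratios of means were 1.01 for Lama5, -0.0055 for Lama4 and -0.28 for Lama2.

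**Figure D2:**
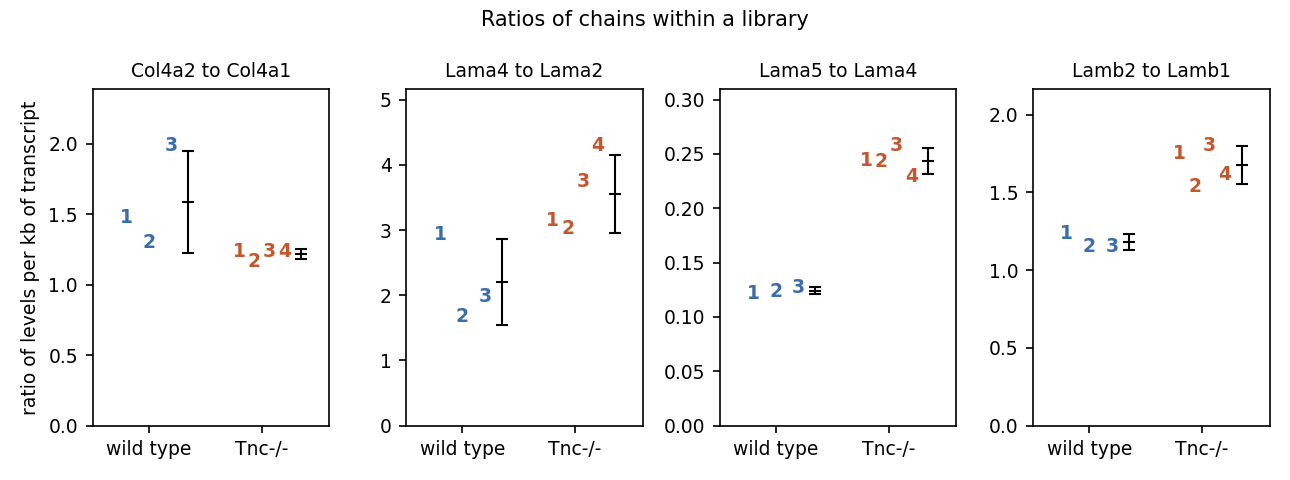
Ratios of chain levels per kb of transcript within each library (vertical axes start at 0), with digits giving the library number and bars the group mean with SD (wild type, n = 3; Tnc-/-, n = 4). Lama5 to Lama4 is 0.121 to 0.128 in wild type and 0.229 to 0.258 in Tnc-/-, while wild-type library 3 widens the spread of Col4a2 to Col4a1.

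Of the beta chains, Lamb1 did not differ between genotypes by more than its spread, and Lamb2 was higher in every Tnc-/- library without passing the test. Lamb1 (ENSMUSG00000002900, chromosome 12) encodes the widely used beta 1 chain. It was at 188, 132 and 152 CPM in wild type and 135, 158, 149 and 203 CPM in Tnc-/- (log2 fold change 0.03, SE 0.18, adjusted p 0.905, edgeR). The groups overlapped almost fully. Lamb2 (ENSMUSG00000052911, chromosome 9) encodes the beta 2 chain, which is concentrated at the neuromuscular junction and in mature vessel walls. Its levels were 227, 148 and 170 CPM in wild type and 230, 236, 261 and 319 CPM in Tnc-/-.

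For Lamb2, the gap between the highest wild-type library and the lowest Tnc-/- library was small, and wild-type library 1 set it. It had a log2 fold change of 0.53 (SE 0.19, adjusted p 0.0687, edgeR). Without wild-type library 1 it was 0.81 with an adjusted p of 9.4e-04, and against library 1 alone it was 0.20 with an adjusted p of 0.592 (edgeR). The ratio of Lamb2 to Lamb1 per kb was 1.24, 1.15 and 1.15 in wild type and 1.75, 1.54, 1.80 and 1.62 in Tnc-/-. It was 1.42-fold higher in Tnc-/- with no overlap, and wild-type library 1 lay close to the other wild-type libraries (exact two-sided permutation p = 0.0571, the smallest possible). The log2 difference of 0.50 was 0.20 with the GC trend removed and turned to -0.072 with GC and span trends removed.

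Lamc1 (ENSMUSG00000026478, chromosome 1) encodes the gamma 1 chain that nearly all laminins share, and its level was close between genotypes. It was at 268, 200 and 216 CPM in wild type and 211, 228, 228 and 259 CPM in Tnc-/- (log2 fold change 0.02, SE 0.15, adjusted p 0.918, edgeR). The range of Tnc-/- lay inside that of wild type. Summed per kb, the 3 alpha chains gave 36.4, 37.8 and 38.3 CPM per kb in wild type and 29.9, 33.8, 32.2 and 38.9 in Tnc-/-. The 2 beta chains gave 72.8, 49.1 and 56.5 CPM per kb in wild type and 64.3, 69.2, 72.1 and 91.9 in Tnc-/-, and these arms overlapped between genotypes as did Lamc1.

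Collagen IV was higher in Tnc-/- for Col4a1 but did not pass the test for Col4a2. Col4a1 (ENSMUSG00000031502, chromosome 8) was at 258, 207 and 162 CPM in wild type and at 264, 373, 331 and 434 CPM in Tnc-/-. The groups did not overlap, but wild-type library 1 and Tnc-/- library 1 were nearly equal. The log2 fold change was 0.74 (SE 0.22, adjusted p 0.0352, edgeR). The call was lost in several of the fits that left out 1 library, while the log2 fold change stayed at 0.59 to 0.77 in those. Without wild-type library 2 or 3 the adjusted p was 0.0934 or 0.132, it rose to 0.0839, 0.0791 and 0.0899 when Tnc-/- library 2, 3 and 4 were left out in turn, and against wild-type library 1 alone the log2 fold change was 0.44 with an adjusted p of 0.310 (edgeR).

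Col4a2 (ENSMUSG00000031503, chromosome 8) was at 371, 262 and 314 CPM in wild type and at 318, 423, 399 and 524 CPM in Tnc-/-. Tnc-/- library 1 lay within the wild-type range. The log2 fold change was 0.40 (SE 0.20, adjusted p 0.173, edgeR), and it was 0.62 with an adjusted p of 0.0132 without wild-type library 1. The ratio of Col4a2 to Col4a1 per kb was 1.48, 1.30 and 1.99 in wild type and 1.24, 1.16, 1.24 and 1.24 in Tnc-/-. It was above 1 in all libraries, nearly constant in Tnc-/- and 0.78-fold that of wild type (exact two-sided permutation p = 0.0571, the smallest possible). Wild-type library 3 carried much of this: without it the log2 difference was -0.18 in place of -0.36. The exons of the 2 genes overlap by 22 bp at their shared promoter, and Gm15419 overlaps Col4a2 by 43 bp, which are short beside their transcripts.

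Of the linkers of the networks, Hspg2 was called higher and Nid1 did not pass the test. Hspg2 (ENSMUSG00000028763, chromosome 4) encodes perlecan, a large heparan sulphate proteoglycan that also lies around chondrocytes. It was at 545, 373 and 389 CPM in wild type and at 706, 817, 859 and 1128 CPM in Tnc-/-. Every Tnc-/- library was above every wild-type library. The log2 fold change of 1.01 (SE 0.22) was the largest of the 10 genes in this fit, with an adjusted p of 0.0126 (edgeR). Against wild-type library 1 alone it was 0.68 with an adjusted p of 0.155, and without wild-type library 3 it was 0.94 with an adjusted p of 0.0603 (edgeR), so the direction was kept and the call was not.

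Nid1 (ENSMUSG00000005397, chromosome 13) encodes the glycoprotein that bridges laminin and collagen IV. It was at 312, 206 and 254 CPM in wild type and at 178, 231, 204 and 247 CPM in Tnc-/-. The groups overlapped, with a log2 fold change of -0.26 (SE 0.18, adjusted p 0.311, edgeR). Scaled by library totals it was -0.50 with an adjusted p of 0.0331 (edgeR). The ratio of Hspg2 to Nid1 per kb, chosen after its values were seen and not tested, was 0.751, 0.776 and 0.658 in wild type and 1.70, 1.52, 1.81 and 1.96 in Tnc-/-. Per kb of transcript, Nid1 was thus above Hspg2 in every wild-type library and below it in every Tnc-/- library. In CPM, not divided by length, Hspg2 was the higher of the 2 in every library of both genotypes. From the fitted fold changes, the log2 difference of this ratio was 1.27, and it was 0.82 with the GC trend removed, 0.94 with GC and span trends removed and 1.197 with the receptor-gene covariate. Gm48682 on the other strand overlaps 143 bp of Nid1 exons.

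Per kb of transcript, Col4a2 was the most abundant of the 10 genes in both genotypes, at 49.0 ± 8.48 CPM per kb in wild type (SD, n = 3) and 64.5 ± 13.1 in Tnc-/- (SD, n = 4). In wild type it was followed by Nid1 at 42.3 ± 8.66, Lamb2 at 32.3 ± 7.20, Col4a1 at 31.6 ± 7.26, Hspg2 at 30.7 ± 6.70, Lamc1 at 29.9 ± 4.67, Lamb1 at 27.2 ± 4.94 and Lama4 at 23.5 ± 1.48. Of the neighbours in this order, Col4a2 and Nid1 did not differ beyond their SD, nor did any from Lamb2 down to Lama4. This SD is between libraries, which the genes share. Col4a2 was above Nid1, Lamc1 above Lamb1 and Lamb1 above Lama4 in every wild-type library, while the rest of these neighbours changed order between libraries. Lama2 at 11.2 ± 2.39 and Lama5 at 2.91 ± 0.17 CPM per kb were lowest. In Tnc-/- the order was Col4a2, Hspg2 (61.9 ± 12.6), Col4a1 (53.0 ± 10.8), Lamb2 (46.5 ± 7.25), Nid1 (35.3 ± 5.01), Lamc1 (30.4 ± 2.62), Lamb1 (27.9 ± 5.09) and Lama4 (22.1 ± 3.19). Lama2 (6.25 ± 0.62) and Lama5 (5.36 ± 0.59) again came last. From Col4a2 down to Lamb2 no gene differed from the next beyond the SD, nor from Nid1 down to Lamb1, whereas Lamb2 and Nid1, Lamb1 and Lama4, and Lama2 and Lama5 did. Within those 2 stretches, Hspg2 was above Col4a1 and Nid1 above Lamc1 in every Tnc-/- library, and the rest of the neighbours changed order between libraries. Hspg2 went from the 5th to the 2nd place and Nid1 from the 2nd to the 5th.

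The 10 genes together summed to 2436, 1819 and 1948 CPM in wild type and to 2271, 2724, 2675 and 3405 CPM in Tnc-/-. The groups overlapped through wild-type library 1, and the log2 difference of 0.42 fell to 0.20 when libraries were scaled by their totals. Within a genotype most of the genes shared their high and low libraries. Tnc-/- library 4 was the highest Tnc-/- library in 9 of the 10 genes (27.9% of tested genes) and Tnc-/- library 1 the lowest in 9 (28.6%). Wild-type library 1 was the highest of its group in 9 genes (42.3%) and library 2 the lowest in 8 (33.1%). The exceptions in wild type were Lama2, which was lowest in library 1 and highest in library 2, and Col4a1, which was lowest in library 3.

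The differences between genotypes were ordered by the base composition of the genes. The 5 genes whose longest transcript was 57.7 to 60.9% GC (Lama5, Lamb2, Col4a1, Col4a2 and Hspg2) had log2 fold changes of 0.40 to 1.01. The 5 genes at 47.7 to 53.0% GC (Lama2, Lama4, Lamb1, Lamc1 and Nid1) had log2 fold changes of -0.83 to 0.03. Across the 10 genes, GC and log2 fold change correlated at a Pearson r of 0.93 and a Spearman rho of 0.89, and across all 17468 tested genes with a GC value at 0.24 and 0.38. These are correlations across genes, which share the same 7 libraries and are not independent replicates. In all tested genes the median log2 fold change was -0.25 up to 48% GC, 0.26 between 52 and 56% and 0.47 above 60%.

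A fit with the GC trend of each library removed, added after the data were seen, brought the first 5 genes to between -0.09 and 0.53 and the other 5 to between -0.72 and -0.10. In it, 21.1% of tested genes were called, among them Lama2 (-0.72, adjusted p 0.0117) and Lama5 (0.41, adjusted p 0.0439), but not Hspg2 (0.53, adjusted p 0.0672) or Col4a1 (0.34, adjusted p 0.213, edgeR). When the trend over gene span was removed as well, 20.7% of tested genes were called, among them Lama5 (0.47, adjusted p 0.0245) and Hspg2 (0.79, adjusted p 0.0421). Lama2 reversed to 0.98 in that fit (SE 0.48, adjusted p 0.173, edgeR). With the summed receptor-gene level as a covariate, 2.25% of tested genes were called and none of the 10, of which 2 had an unadjusted p under 0.05 (edgeR). This level was higher in every wild-type library than in every Tnc-/- library, so the fit cannot fully tell it apart from genotype. The SEs of Lama5 and Hspg2 were 0.13 and 0.22 without the covariate and 0.24 and 0.31 with it. In that fit Lama5 was at 0.76 (SE 0.24, adjusted p 0.115), Hspg2 at 0.48 (adjusted p 0.451), Col4a1 at 0.29 (adjusted p 0.681) and Lama2 at -0.26 (adjusted p 0.546, edgeR). With wild-type libraries 2 and 3 left out together, 4.45% of tested genes were called, and Lama5 was the only one of the 10. The part of GC, span and receptor-gene reads in the genotype differences was not tested beyond these fits.

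**Figure D3:**
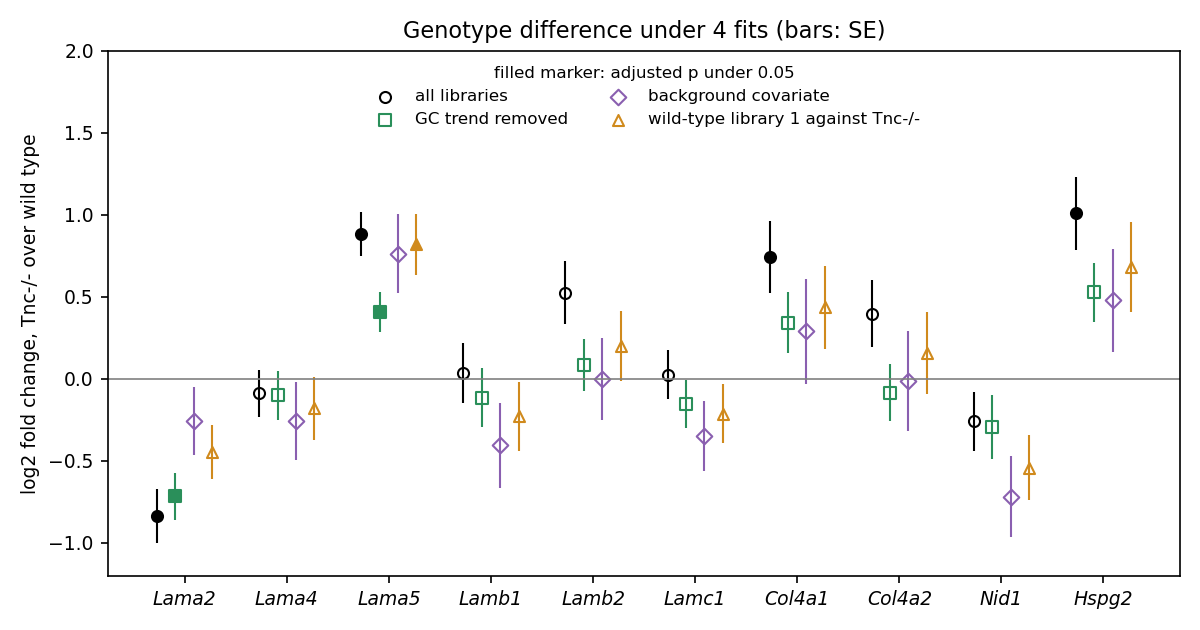
Log2 fold change of each gene, Tnc-/- over wild type, with its SE under 4 fits (the background covariate is the summed receptor-gene level), where filled markers have an adjusted p under 0.05. Lama5 lies between 0.41 and 0.88 in all 4 fits and is filled in 3, whereas Hspg2 and Col4a1 are filled only in the fit of all libraries and Lama2 only there and with the GC trend removed.

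**Figure D4:**
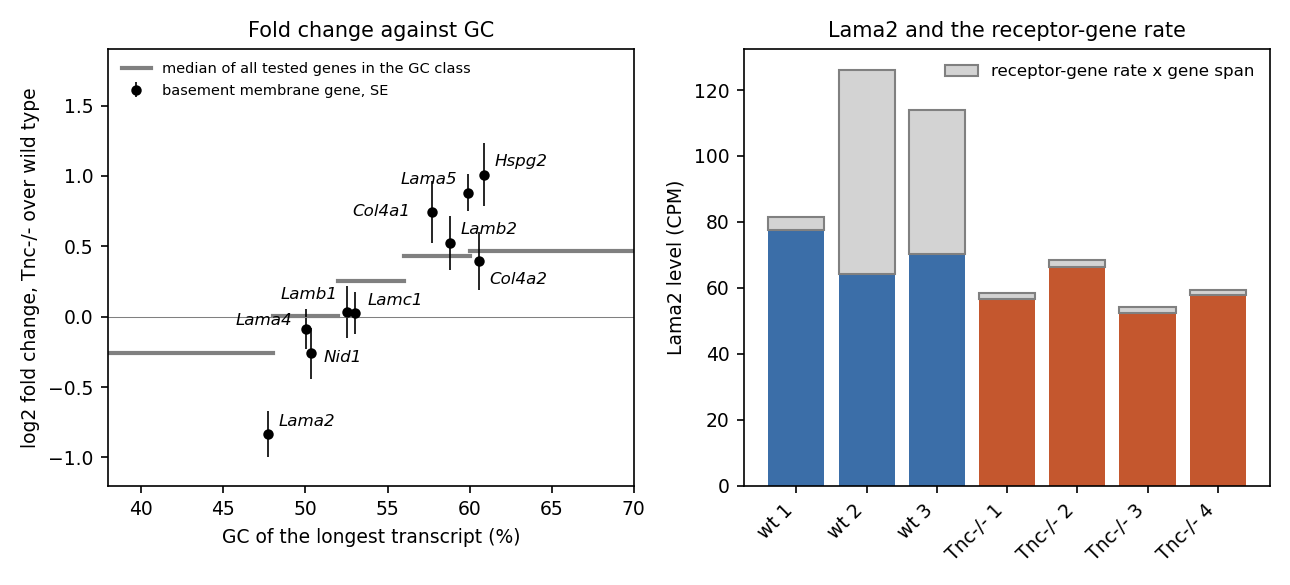
Left, log2 fold change with SE against transcript GC for the 10 genes, with grey lines for the median of all tested genes in each GC class. Right, the Lama2 level in each library (whole bar), of which the grey part is the receptor-gene rate per kb times the Lama2 span, 61.9 and 43.8 CPM in wild-type libraries 2 and 3 and 1.71 to 4.07 CPM elsewhere.

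The genes most like Col4a1 over the 7 libraries, by Pearson r of log2 levels among 10733 genes of at least 10 CPM, were Selenow (0.994), Inppl1 (0.990) and Chmp4b (0.989), given as a description. Hspg2 ranked at place 115 (0.947) and Col4a2, its partner in the trimer, at place 1005 (0.864). For Lama2 the genes were Mbd5 (0.998), Wdr44 (0.994) and Rapgef4 (0.990), which span 376, 113 and 276 kb. The nearest of the other 9 genes was Nid1 at place 3314 (0.263).

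Of 5 other laminin chains none was called higher and 2 were called lower, against 10.3% and 18.7% of all tested genes. These were Lama1 (log2 fold change -5.41, adjusted p 0.0106) and Lamc3 (-3.22, adjusted p 0.0177, edgeR). Lama1, a chain of embryonic and some epithelial basement membranes, was at 0.644, 20.9 and 16.3 CPM in wild type and at 0.0557 to 0.616 CPM in Tnc-/-. All 4 minor collagen IV chains were called lower (18.7% of all tested genes): Col4a3 (-3.90, adjusted p 0.0152), Col4a4 (-2.84, adjusted p 0.0126), Col4a5 (-0.80, adjusted p 0.0456) and Col4a6 (-3.82, adjusted p 0.0157, edgeR). Col4a3 was at 1.02, 17.8 and 8.57 CPM in wild type and 0.168 to 0.947 CPM in Tnc-/-. In these genes wild-type libraries 2 and 3, those rich in receptor-gene reads, were high and library 1 lay near Tnc-/-. Against library 1 alone the log2 fold changes were -1.14 for Lama1, -0.36 for Lamc3, -0.75 for Col4a3, -0.30 for Col4a4, -0.40 for Col4a5 and -0.48 for Col4a6, and none of these 6 was called (4.45% of all genes tested there). The median of the 5 other laminin chains went from -1.26 to 0.82 in that comparison. In the fit with the receptor-gene covariate, Lama1 was at 0.31 and Lamc3 at 0.63. Col4a3 was at 0.46, Col4a4 at 0.63, Col4a5 at -0.25 and Col4a6 at 0.60 there, and none of these was called (2.25% of all tested genes). Voom called 0 of the 9 chains, against 5.47% of all tested genes, with 1 chain at an unadjusted p under 0.05.

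Other components of the sheet moved both ways. Of 17 genes, 3 were called higher and 5 lower, against 10.3% and 18.7% of all tested genes, with a median log2 fold change of -0.34. Agrn, the proteoglycan that clusters acetylcholine receptors, rose from 52.6, 29.4 and 32.1 CPM to 63.3, 67.8, 71.6 and 75.2 CPM (log2 fold change 0.87, adjusted p 0.0163, edgeR). Hemicentin 2 (Hmcn2) was at 103, 108 and 86.1 CPM in wild type and 195 to 210 CPM in Tnc-/- (1.05, adjusted p 0.0062), and Tinagl1 also rose (0.68, adjusted p 0.0209, edgeR). Hemicentin 1 (Hmcn1) went the other way, from 41.5, 71.6 and 73.1 CPM to between 18.6 and 24.9 CPM (-1.56, adjusted p 0.0067, edgeR). Both hemicentins kept their direction and their call against wild-type library 1 alone, Hmcn2 at 0.99 (adjusted p 0.0125) and Hmcn1 at -0.98 (adjusted p 0.0198, edgeR). With the summed receptor-gene level as a covariate Hmcn1 was at -0.75 and lost its call (adjusted p 0.116), while Hmcn2 was at 1.004 (adjusted p 0.0485, edgeR). With the GC trend removed Hmcn2 was at 0.59 (adjusted p 0.0143) and Hmcn1 at -1.43 (adjusted p 0.0086, edgeR). Their transcripts are 60.1 and 47.7% GC and their spans 146 and 431 kb. Fras1 (-1.94, adjusted p 0.0201), Frem1 (-1.15, adjusted p 0.0230) and Frem2 (-2.84, adjusted p 0.0100), of the Fraser complex of skin, and the laminin-binding netrin Ntn4 (-0.62, adjusted p 0.0444, edgeR) fell. Under the receptor-gene covariate these were 0.58, -0.55, 0.066 and 0.060 in the same order, with Agrn at 0.14 and Tinagl1 at 0.69. Against wild-type library 1 alone these were -0.14, -0.76, -0.72 and -0.14, with Agrn at 0.40 and Tinagl1 at 0.68.

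Of 17 basement membrane receptors, 1 was called higher and 2 lower, against 10.3% and 18.7% of all tested genes, with a median log2 fold change of 0.14. Sspn, a membrane protein of the dystrophin complex, was at 182, 104 and 119 CPM in wild type and at 260, 294, 389 and 273 CPM in Tnc-/- (1.17, adjusted p 0.0098, edgeR). Dmd (dystrophin; -0.94, adjusted p 0.0200) and Sgcd (delta sarcoglycan; -0.71, adjusted p 0.0348, edgeR) fell, with the groups overlapping in both. Against wild-type library 1 alone they were at 0.74, -0.37 and -0.18 in the same order, and none of the 17 was called (4.45% of all genes tested there). Dmd and Sgcd span 2257 and 1093 kb, and with the summed receptor-gene level as a covariate they were at -0.095 and 0.076. Dystroglycan (Dag1), the laminin receptor of muscle, was at 177 to 207 CPM in wild type and 169 to 239 CPM in Tnc-/- (0.17, adjusted p 0.446, edgeR), and the integrin chain Itgb1 had a log2 fold change of -0.05.

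Of 11 genes for collagen IV folding, secretion and cross-linking, none was called in either direction by edgeR, DESeq2 or limma voom, which called 29.0%, 39.3% and 5.47% of the genes they tested. Of the 11, 0 had an unadjusted p under 0.05 in edgeR, and the median log2 fold change was 0.04. The collagen chaperone Serpinh1 was at 817 to 1270 CPM in wild type and 871 to 1474 CPM in Tnc-/- (0.03, adjusted p 0.936), and P4hb, a subunit of prolyl 4-hydroxylase, had a log2 fold change of 0.17 (adjusted p 0.600, edgeR).

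**Figure D5:**
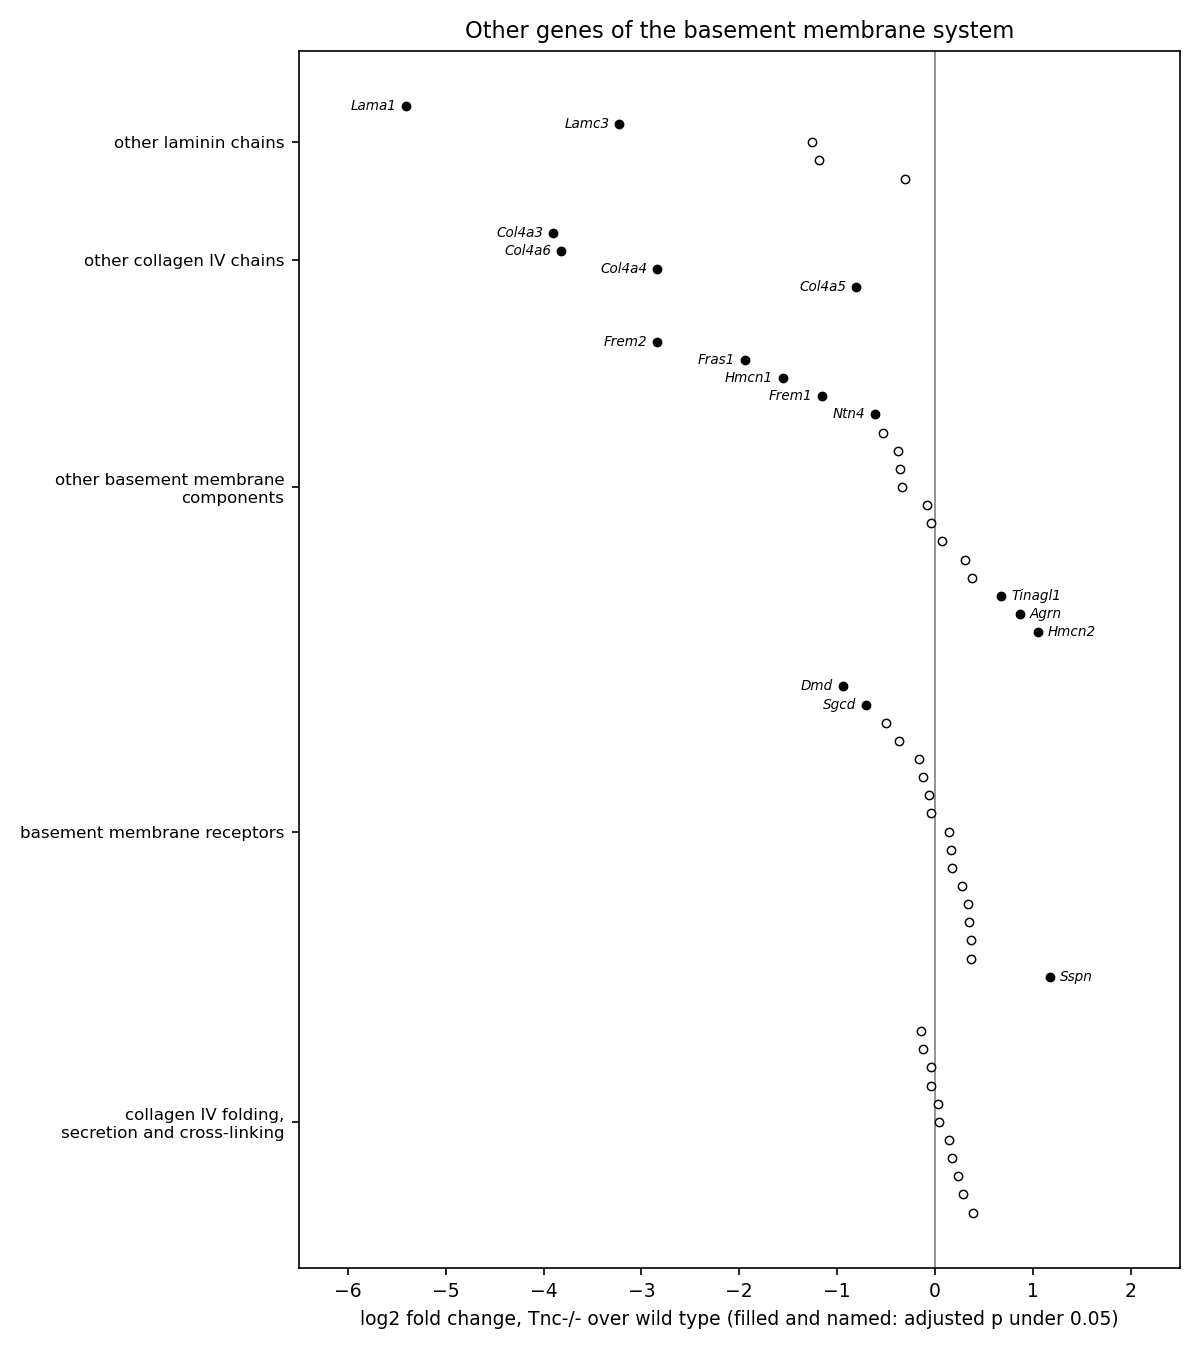
Log2 fold change, Tnc-/- over wild type, of each tested gene in 5 lists of the basement membrane system (1 point per gene), with filled and named points at an adjusted p under 0.05. All 4 minor collagen IV chains lie below 0, the 11 folding and cross-linking genes cluster around 0, and Hmcn2, Agrn, Tinagl1 and Sspn are the genes called higher.

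Markers of the cells that make basement membrane are given beside these values, and their counts are to be read against 10.3% of all tested genes called higher and 18.7% called lower. The 10 endothelial markers summed to 809 to 988 CPM in wild type and 819 to 973 CPM in Tnc-/-, with 1 called higher (Vwf, 0.77, adjusted p 0.0186) and 2 lower (Tek, -0.95, adjusted p 0.0067, and Emcn, -0.84, adjusted p 0.0173, edgeR). The 9 pericyte and smooth muscle markers summed to 823 to 1114 CPM and 901 to 1237 CPM, with 2 called higher (Notch3, 0.70, adjusted p 0.0163, and Mcam, 0.49, adjusted p 0.0452, edgeR). The summed levels of both lists overlapped between genotypes. The 8 adipocyte markers summed to 454 to 794 CPM and 564 to 939 CPM, with 1 of the 7 tested called higher, Adipoq (0.63, adjusted p 0.0491, edgeR), and Lipe listed at 0 in all libraries. The 10 fibroblast and tendon markers summed to 32317 to 51504 CPM and 34464 to 59655 CPM, with 2 of the 9 tested called lower (Lum and Mkx). The 10 cartilage and bone markers summed to 2132 to 3614 CPM and 2317 to 4011 CPM, with 1 called higher (Bglap), and the 8 macrophage markers to 1705 to 3293 CPM and 2677 to 3086 CPM, with 1 called higher (Cd14). The 8 epidermal markers summed to 11.4 to 44.4 CPM and 8.73 to 13.5 CPM, with 1 of the 2 tested called lower (Trp63). Trp63 was at 9.34, 32.2 and 26.8 CPM in wild type, and its log2 fold change of -1.61 was -0.33 against library 1 alone. Of the 15 cell type markers called, those of muscle and Schwann cells included, 2 were also called in that comparison, Tek (-0.77, adjusted p 0.0314) and Notch3 (0.98, adjusted p 0.0251, edgeR), as were 616 of all 5159 genes called. The part of these cell types in the differences was not tested.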

How the data were processed

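Each library has 1 deposited file of unnormalised read counts for every gene. The authors used FastQC 0.11.9, HISAT2 2.2.1, HTSeq 2.0.2 and DESeq2 1.38.3 with build GRCm39 (mm39), per the submitters' processing notes, and poly(A) RNA was captured, per the labels' protocols. Wild-type files listed 56980 identifiers, and Tnc-/- files 56941 with symbols and 5 entries that name no gene, which held 30.1 to 32.7% of the listed reads and were left out. The 56854 identifiers in all files were used, with 126 and 87 in one genotype alone and 0 columns unmapped. Spans, exon overlaps and GC came from GENCODE M21 (GRCm38; 91.5% of identifiers and 98.2% of tested genes matched).

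The genotypes were compared with edgeR 4.0.16 (R 4.3.3; filterByExpr, TMM, robust quasi-likelihood F test, genotype as the 1 term, Benjamini-Hochberg, threshold 0.05), and the procedure was tested on simulated data. The simulated libraries of a genotype had the same expected levels and no GC or span trends, unlike these data. Alternatives were DESeq2 1.42.0, limma 3.58.1 (voom), other scalings, filters and adjustment, a replicate block, a receptor-gene covariate and each library left out. GC and span trends, subtraction of a receptor-gene rate, leaving out 2 wild-type libraries, ratios taken from these fits and a Schwann cell sum without Mbp were added after the data were seen. Ratios used exact two-sided permutation tests. The 10 genes and all lists were chosen with earlier results of these data known. Named are all 10 genes, from each pathway list those called or else the 2 most abundant, and the 3 genes most like Col4a1 and Lama2. Of the pathway lists, 1 is not reported here. Other genes named, among them Dag1, Itgb1 and Tnmd, were chosen after their values were seen. The labels give 1 mouse per library but not separate litters or days, so p-values measure the spread between these samples. No pair of replicates agreed within sampling noise (chi-square per degree of freedom 22.0 to 132).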

Additional observations from a re-analysis of the deposited data

Results flagged for a closer look

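The ratio of Col4a2 to Col4a1 per kb of transcript was 1.16 in Tnc-/- library 2, against 1.24 in each of the other 3 Tnc-/- libraries. Its gap to the nearest of them was 0.959 of the range of the group, above Dixon's 95% critical value for 4 samples. The 4 ratios and the other member values, 18 in all, were examined in this way in Tnc-/-, and chance marks about 1 in 20 such groups. The other 3 libraries were almost equal, so the step is small in size.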

How the results depend on the processing

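Over 20 alternatives the call was kept in 18 for Lama5 (log2 fold change 0.41 to 1.002), 16 for Lama2, 14 for Hspg2 (0.48 to 1.30) and 6 for Col4a1 (0.29 to 1.02), and no alternative called Lama4, Lamb1 or Lamc1. Against 4 of the 10 genes and 5159 of all genes called, the counts were 2 and 3694 with the GC trend removed, 2 and 3610 with GC and span trends removed, 0 and 400 with the receptor-gene covariate, 0 and 22 with Bonferroni adjustment, and 1 and 825 with wild-type libraries 2 and 3 left out together. DESeq2 called 9423 genes and 5 of the 10, and limma voom 973 and 3. With single libraries left out, 2229 to 14113 genes were called and 2 to 6 of the 10, the highest without wild-type library 1 and the lowest without wild-type library 3. At an unadjusted p under 0.05, 5 of the 10 were past the threshold in edgeR, and of all tested genes at least the 29.0% called were past it.

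The replicate block called 1932 genes and 2 of the 10, Lama2 and Lama5. Deviations of same-numbered samples from their group means correlated at 0.0075, 0.117 and -2.9e-04, so the samples share only a number. Under the block Hspg2 was at 0.88 (adjusted p 0.0623) and Col4a1 at 0.64 (adjusted p 0.125, edgeR).

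Reversals were all in genes that did not pass the test under the alternative. With GC and span trends removed, Lama2 was at 0.98, Lama4 at 0.35 and Lamb2 at -0.070. With the GC trend removed, Lamb1 was at -0.12, Lamc1 at -0.15 and Col4a2 at -0.086. With the receptor-gene covariate, Lamb1 was at -0.40, Lamc1 at -0.35, Lamb2 at -0.0014 and Col4a2 at -0.014. Lamb1 and Lamc1, close to 0, were at -0.0079 and -0.018 with DESeq2 size factors, -0.20 and -0.21 with library totals, -0.031 and -0.041 with upper-quartile scaling, -0.042 and -0.052 with 10 counts in every library, -0.083 and -0.023 with the replicate block and -0.23 and -0.21 with wild-type libraries 2 and 3 left out. Lamc1 was at -0.0062 with DESeq2. With single libraries left out, Lama4 ranged from -0.19 to 0.051 (above 0 without wild-type library 1), Lamb1 from -0.098 to 0.28 (below 0 at -0.074 without wild-type library 2, and without Tnc-/- library 4) and Lamc1 from -0.058 to 0.25 (below 0 in 3 of 7 cases). The cause of the reversals was not tested.

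The log2 ratios kept their direction with each library left out, Col4a2 to Col4a1 at -0.49 to -0.18, Lama4 to Lama2 at 0.54 to 0.95, Lama5 to Lama4 at 0.95 to 1.003 and Lamb2 to Lamb1 at 0.47 to 0.54. As differences of fitted fold changes, with the GC trend removed Lama5 to Lama4 was at 0.51 and Lamb2 to Lamb1 at 0.20. With GC and span trends removed these were at 0.12 and -0.072 and Lama4 to Lama2 at -0.62. With the receptor-gene covariate Lama4 to Lama2 was at 8.2e-04 and Lamb2 to Lamb1 at 0.40, with Lama5 to Lama4 at 1.02, while Col4a2 to Col4a1 stayed at -0.43 to -0.30 in these 3 fits. Counting error bears most on Lama5, with 464 to 641 reads in the wild-type libraries.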
